A study of Mus musculus and Homo sapiens with 8 samples.

Results

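A set of 10 genes that mark dendritic cells was followed across the thymus arrays of this study. They were taken by name from the mouse expression table, where the rows FSCN1, BATF3, IRF8, ITGAX, XCR1, CLEC9A, FLT3, CD83, CD209A and SIGLECH were all present, so 10 of the table's 30854 rows were members. One row under an older clone name also maps to Batf3 and another to Clec9a, and these 2 further entries are given beside the members and not counted with them. Only 6 of the 10 members gave a signal above background on any array. The member rows of Itgax, Flt3, Clec9a and Cd209a, which define dendritic cells or their subsets, gave none. The further Clec9a entry was above background on 2 arrays. Cd83, Irf8 and Fscn1, which were above background on all arrays, can also be expressed by other cells of the thymus.

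Dendritic cells of the thymus sit mainly in the medulla, where they present self antigens to developing T cells and help to remove or divert those that react to them. Type 1 conventional cells depend on the transcription factors IRF8 and BATF3 and carry XCR1 and CLEC9A, while plasmacytoid cells carry Siglec-H. When a dendritic cell matures it gains CD83 and the actin-bundling protein fascin, the product of Fscn1, under the control of NF-kB. TRAF6 is a ubiquitin ligase that links receptors of the TNF and Toll-like families to NF-kB.

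RNA labelled as from thymus cells was hybridised to 5 Illumina bead arrays, and the mice were of the CD-1 strain background and 2.5 weeks old. There was 1 array of unirradiated wild type and 2 of irradiated wild type, labelled with a dose of 15 Gy of ionising radiation and a time of 10 h, and 2 labelled TRAF6 null with the same dose and time. No array of unirradiated TRAF6 null thymus was analysed here, so radiation and genotype both differ between the arrays labelled TRAF6 null and the unirradiated array. The labels do not state how the TRAF6 allele was made, nor if each array stands for its own animal, so a p-value here measures only how far these samples spread, which may be technical. The remaining arrays of the series hold RNA of a human cell line and were not used here.

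The Traf6 row did not show the loss that its label would give. It stood at 8.10 in normalised log2 signal without irradiation, 7.66 and 7.73 in irradiated wild type and 9.04 and 8.61 in the pair labelled TRAF6 null. The last pair was therefore 2.19-fold higher than irradiated wild type (log2 difference 1.13 ± 0.20 SE, limma adjusted p = 0.0122), and the table does not say where the probes lie relative to any deleted part. Every direction below rests on the labels. Correlations over the tested rows were 0.988 within irradiated wild type, 0.971 within the pair labelled TRAF6 null and 0.865 to 0.886 for arrays of different groups, and 9493 to 11177 rows per array had a detection p under 0.01. Of 15 rows of double-positive thymocyte genes, 14 were above background on the unirradiated array and 11 to 13 on the other arrays, and Cd8a was above background on none.

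A row counted as above background where its signal exceeded the estimated 99th percentile of the negative controls, which lay between 122.0 and 128.0 on the 5 arrays. Bead signals of the members ran from 100.4 to 1965.5, with a bead standard error of 2.11% to 5.51% of the signal. Tests were made on normalised log2 signals with limma over the 11563 rows that had a detection p under 0.01 on at least 2 arrays, and 4 members were among them, Batf3, Irf8, Fscn1 and Cd83. In the RefSeq annotation of GRCm38.p6 these genes lie on chromosome 1 from 191098414 to 191108943 (Batf3), chromosome 8 from 120736358 to 120756694 (Irf8), chromosome 5 from 142960355 to 142973189 (Fscn1) and chromosome 13 from 43785112 to 43803133 (Cd83), and the table does not say where in a gene its probes lie. With 5 arrays the precision is limited by their number. In RNA of a whole organ, fewer cells of a type and less RNA per cell cannot be told apart.

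**Figure D1:**
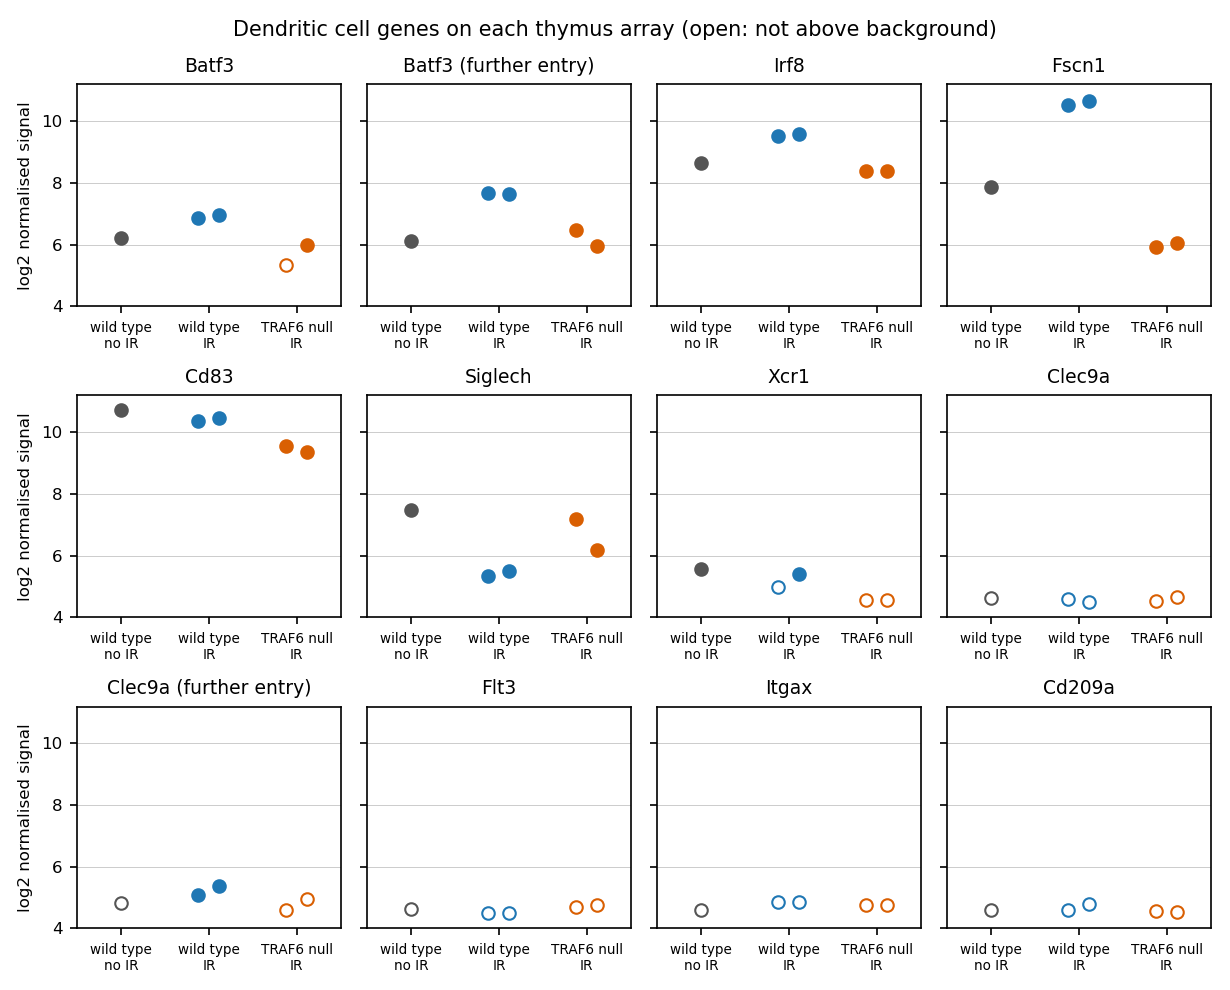
Normalised log2 signal of the 10 members and 2 further entries on each of the 5 thymus arrays, by group, 1 point per array; filled points are above background and open points are not. Fscn1 stands at 10.53 and 10.67 in irradiated wild type, against 7.88 without irradiation and 5.91 and 6.07 in the pair labelled TRAF6 null. The member rows of Flt3, Itgax, Clec9a and Cd209a have open points on every array.

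Batf3 and Irf8, the transcription factors of type 1 dendritic cells, were both lower on the arrays labelled TRAF6 null than on irradiated wild type. Irf8 had a normalised log2 signal of 8.65 without irradiation, 9.52 and 9.58 in irradiated wild type, and 8.39 and 8.40 in the pair labelled TRAF6 null. Both irradiated wild-type arrays stood above the other 3, which lay close together. The difference between genotypes after irradiation was -1.16 ± 0.15 SE (2.23-fold lower, limma adjusted p = 0.00601), and Irf8 rose by 0.89 ± 0.18 SE from unirradiated to irradiated wild type (1.86-fold, adjusted p = 0.0211). Between the arrays labelled TRAF6 null and the unirradiated array the difference was -0.26, with a 95% interval of -0.73 to 0.21 (adjusted p = 0.322). The genotype difference did not pass once irradiated wild-type array 1 or 2 was left out (adjusted p = 0.062 and 0.0756), nor did the rise (adjusted p = 0.127 and 0.156), which was also lost with the replicate number as a block (0.88, adjusted p = 0.0573), although the log2 differences stayed between -1.30 and -0.98 and between 0.77 and 0.94 over all alternatives, with adjusted p from 0.0027 to 0.0756 and from 0.0095 to 0.156.

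Batf3 was dim. Its row stood at 6.23 without irradiation, at 6.88 and 6.98 in irradiated wild type, and at 5.35 and 5.99 in the pair labelled TRAF6 null, where array 1 was not above background. Groups did not overlap, with irradiated wild type highest and the arrays labelled TRAF6 null lowest. The genotype difference was -1.26 ± 0.25 SE (2.40-fold lower, limma adjusted p = 0.0165), while the difference between irradiated and unirradiated wild type, 0.70 ± 0.31 SE with an interval of -0.10 to 1.5, did not pass (adjusted p = 0.134), nor did that between the arrays labelled TRAF6 null and the unirradiated array (-0.56, interval -1.36 to 0.24, adjusted p = 0.229). In the authors' matrix the difference within wild type was 0.71 and passed (limma adjusted p = 0.0296). The genotype call was lost without irradiated wild-type array 1 or 2 (adjusted p = 0.0908 and 0.111), and with another estimate of the background the difference shrank to -0.14 (adjusted p = 0.0578, in a range of 0.00403 to 0.111 over the alternatives). Without array 1 or array 2 labelled TRAF6 null, the rise of 0.70 in wild type passed (adjusted p = 0.0201, the same fit in both cases), and without array 2 the row was also lower than on the unirradiated array (-0.88, adjusted p = 0.023).

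The further Batf3 entry, a separate measurement of the same gene, gave 6.13 without irradiation, 7.69 and 7.65 in irradiated wild type, and 6.47 and 5.96 in the pair labelled TRAF6 null. Here irradiated wild type stood above all other arrays, and the arrays labelled TRAF6 null lay on either side of the unirradiated one. The entry was 2.74-fold lower in the pair labelled TRAF6 null than in irradiated wild type (-1.46 ± 0.22 SE, limma adjusted p = 0.00816) and 2.91-fold higher in irradiated than in unirradiated wild type (1.54 ± 0.27 SE, adjusted p = 0.0147). Its difference between the arrays labelled TRAF6 null and the unirradiated array was 0.09 (interval -0.60 to 0.78). Both entries thus gave a lower Batf3 signal on the arrays labelled TRAF6 null than in irradiated wild type, and only the further entry passed for the rise in wild type. Leaving out irradiated wild-type array 1 or 2 took the adjusted p of the genotype difference to 0.066 and 0.0727 and that of the rise to 0.0882 and 0.0939. With the other estimate of the background both differences passed but shrank, to -0.26 (adjusted p = 0.0242) and 0.27 (adjusted p = 0.0299), as for the member row; adjusted p ran from 0.00276 to 0.0727 and from 0.00357 to 0.0939 over the alternatives.

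Fscn1, which encodes the fascin that shapes the long processes of mature dendritic cells, differed most among the members. Its bead signal was 327.8 without irradiation, 1617.0 and 1656.6 in irradiated wild type, and 137.0 and 149.5 in the pair labelled TRAF6 null. In normalised log2 units these were 7.88, then 10.53 and 10.67, then 5.91 and 6.07, so the groups were far apart and the arrays within each group close. The arrays labelled TRAF6 null were 24.5-fold lower than irradiated wild type (-4.61 ± 0.16 SE, interval -5.03 to -4.20, limma adjusted p = 0.00141), and counting Fscn1 itself 11 of the 11563 tested rows were as low in this comparison. In wild type Fscn1 rose 6.61-fold with irradiation (2.72 ± 0.20 SE, adjusted p = 0.00594), a rise that 117 rows matched or exceeded, and the arrays labelled TRAF6 null were 3.70-fold lower than the unirradiated array (-1.89 ± 0.20 SE, adjusted p = 0.00903). The genotype difference passed in every alternative, from -4.71 to -2.98, with adjusted p from 0.000594 to 0.0331. The rise did not pass without irradiated wild-type array 1 or 2 (2.79 and 2.66, adjusted p = 0.0551 and 0.0668), and the fall below the unirradiated array was -0.35 (adjusted p = 0.105) with the other estimate of the background.

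Cd83, a surface protein of mature dendritic cells that thymocytes and thymic epithelium also carry, was bright on all arrays and followed another order. It stood at 10.74 without irradiation, 10.38 and 10.48 in irradiated wild type, and 9.55 and 9.37 in the pair labelled TRAF6 null. The unirradiated array was the highest and the arrays labelled TRAF6 null were the lowest, with no overlap. Cd83 was 1.95-fold lower in the pair labelled TRAF6 null than in irradiated wild type (-0.97 ± 0.16 SE, limma adjusted p = 0.0104) and 2.43-fold lower than on the unirradiated array (-1.28 ± 0.20 SE, adjusted p = 0.0146). The difference between irradiated and unirradiated wild type was -0.31 with an interval of -0.82 to 0.19 (adjusted p = 0.260). Without irradiated wild-type array 1 or 2 the first fall did not pass (adjusted p = 0.0819 and 0.106), and neither did the second (adjusted p = 0.0658, the same fit in both cases).

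On the arrays labelled TRAF6 null against irradiated wild type, the 4 tested members, Fscn1, Batf3, Irf8 and Cd83, were all lower and none was higher, where 22.9% of all tested rows were called lower and 20.8% higher. In irradiated against unirradiated wild type, Fscn1 and Irf8 rose and none of the 4 fell, against 18.6% of all rows called higher and 17.5% lower. Between the arrays labelled TRAF6 null and the unirradiated array, Fscn1 and Cd83 were lower, against 15.0% of all rows called lower and 13.6% higher. The other 6 members were not tested in any of these counts. The first and second comparison share the irradiated wild-type arrays, so a value that is high there lowers the first difference and raises the second. With irradiated wild-type array 1 or 2 left out, only Fscn1 kept its call in the first comparison, while the log2 differences of the other 3 hardly moved (Batf3 -1.31 and -1.21, Irf8 -1.19 and -1.12, Cd83 -1.02 and -0.91), and no row of the whole table passed in the second, where 3837 and 3502 rows had an unadjusted p under 0.05.

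**Figure D2:**
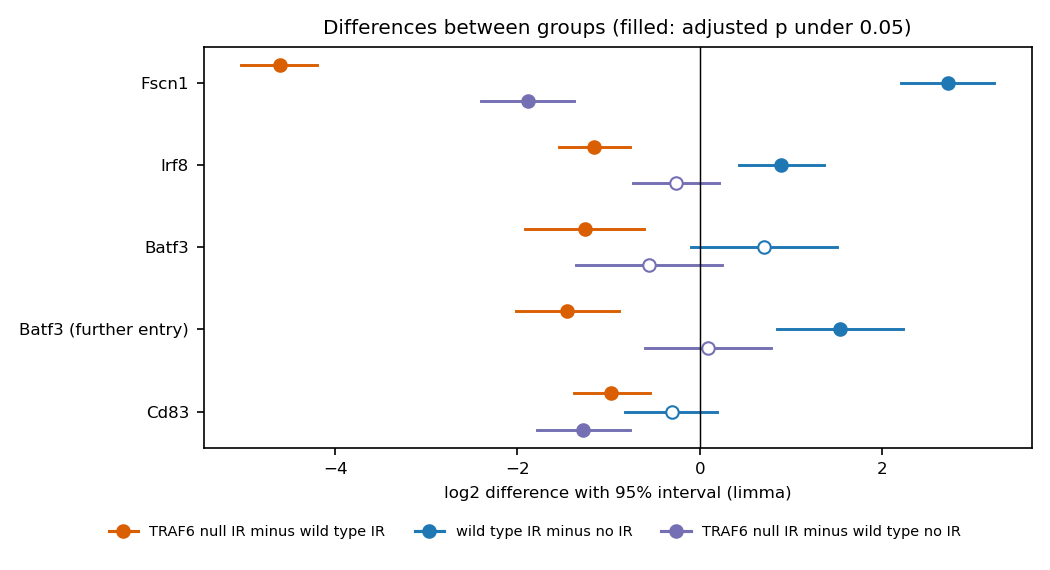
Log2 difference between groups for the 4 tested members and the further Batf3 entry, with the 95% interval of limma's fit as a line; filled points had an adjusted p under 0.05. The genotype difference after irradiation lies below 0 for every row shown, from -4.61 for Fscn1 to -0.97 for Cd83, and the interval for Cd83 in irradiated against unirradiated wild type spans 0.

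The promoters of Fscn1, the member with the largest difference, and of Batf3, the member measured by 2 entries that passed, are shown to give their sequence context. The windows run from 250 bases before to 50 bases after the start of the gene, in the RefSeq annotation of GRCm38.p6. They lie on the plus strand at chr5:142960105-142960404 (Fscn1) and chr1:191098164-191098463 (Batf3). Capitals mark the letters GGGNNNTNC, a loose pattern for part of an NF-kB site, on either strand. A match need not be such a site, and binding was not tested.
Fscn1: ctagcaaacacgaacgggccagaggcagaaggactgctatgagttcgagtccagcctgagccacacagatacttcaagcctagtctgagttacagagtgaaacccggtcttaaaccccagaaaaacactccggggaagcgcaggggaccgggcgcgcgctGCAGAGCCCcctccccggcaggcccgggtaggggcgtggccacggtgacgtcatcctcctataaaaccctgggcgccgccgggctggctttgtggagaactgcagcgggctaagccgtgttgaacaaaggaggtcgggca
Batf3: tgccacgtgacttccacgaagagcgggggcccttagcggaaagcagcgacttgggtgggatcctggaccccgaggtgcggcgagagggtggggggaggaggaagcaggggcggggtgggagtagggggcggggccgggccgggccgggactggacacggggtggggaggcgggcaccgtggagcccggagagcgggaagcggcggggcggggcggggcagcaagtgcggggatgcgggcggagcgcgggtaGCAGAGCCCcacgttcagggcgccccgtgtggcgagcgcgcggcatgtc
Counted from the first base of the window, Fscn1 holds the letters at bases 161 to 169 and Batf3 at bases 252 to 260. The match in Batf3 thus lies after the start of the gene and that in Fscn1 before it. The match in Fscn1 and that in Batf3 have the same sequence, GCAGAGCCC, which reads the pattern on the opposite strand. Such short letters are common: 15404 of 32851 promoter windows in the table, 46.9%, hold at least 1 match, and of the 9 members with a window 4 do, the others being Irf8 and Siglech. Neither printed window holds GGAANNGAA, the composite that IRF8 binds with PU.1 (8.24% of all windows), TGANTCA, bound by AP-1 and BATF factors (7.81%), or GAAANNGAA, part of an interferon-stimulated element (8.56%). Elsewhere among the members, Cd209a holds the first of these, Itgax the second and Clec9a the third. Cd83 has no window in the table.

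Siglech, the Siglec-H receptor of plasmacytoid dendritic cells, had its lowest values where Fscn1 and Irf8 had their highest. Its bead signal was 265.9 without irradiation, 133.3 and 135.6 in irradiated wild type, and 206.8 and 155.1 in the pair labelled TRAF6 null. On the normalised log2 scale it stood at 7.48, then 5.34 and 5.50, then 7.19 and 6.19, all above background, with irradiated wild type lowest and no overlap between groups. It missed the filter because its detection p in the table was 0.0448 to 0.149. These p-values may be averages over the probes of a gene, which the headers do not state, and both the filter and the estimated negative controls rest on them. Among the 14250 rows with a signal above background on at least 2 arrays, fitted in place of the filtered rows, Siglech was 4.17-fold lower in irradiated than in unirradiated wild type (-2.06 ± 0.43 SE, limma adjusted p = 0.0224) and 2.41-fold higher in the pair labelled TRAF6 null than in irradiated wild type (1.27 ± 0.35 SE, adjusted p = 0.0391). Its difference between the arrays labelled TRAF6 null and the unirradiated array was -0.79 (interval -1.89 to 0.31, adjusted p = 0.223). In that wider set 34.4%, 42.0% and 27.0% of rows were called in these 3 comparisons, in either direction. With all 30854 rows in the fit, Siglech passed in none (adjusted p = 0.0632, 0.108 and 0.396). Neither of these fits was repeated with an array left out.

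Xcr1, the chemokine receptor by which type 1 dendritic cells sense XCL1, gave 132.8 without irradiation and 120.0 and 131.6 in irradiated wild type, and 103.5 and 105.2 in the pair labelled TRAF6 null. It was above background on the unirradiated array and on irradiated wild-type array 2, and on neither array labelled TRAF6 null. In the wider set of 14250 rows it was at least 1.14-fold lower in the pair labelled TRAF6 null than on the unirradiated array (group means 4.57 and 5.58, limma adjusted p = 0.0386), and its other differences did not pass (-0.62 against irradiated wild type, adjusted p = 0.0587, and -0.39 in wild type, adjusted p = 0.265). With all rows in the fit the first of these had an adjusted p of 0.0632. The further Clec9a entry was above background on both irradiated wild-type arrays alone, at 123.6 and 130.2 against limits of 123.3 and 122.0. None of its differences passed in the wider set (adjusted p = 0.126 to 0.867).

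Clec9a itself, the receptor for exposed actin on dead cells, had bead signals of 100.4 to 108.8 over the 5 arrays. Flt3, the receptor of the growth factor that drives dendritic cell production, had 101.1 to 111.9. Itgax, which encodes CD11c, had 104.3 to 115.7, and Cd209a, a lectin of the DC-SIGN family, 102.7 to 112.2. All of these rows lay below the limit of background on each array, so no order of groups and no fold is given for them.

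The rows of the table most like each tested member were found by the root mean square difference of the 5 log2 values, each row centred on its own mean. For Irf8 these were Dusp6, a phosphatase of the MAP kinase ERK, at 0.0191 and Elapor1 at 0.0281. For Fscn1 they were Mmp12, a macrophage elastase, at 0.274 and Apoa1, an apolipoprotein, at 0.396. The measure is not scaled by how much a row varies, so distances for Fscn1 cannot be set against those of the other members. Batf3 was nearest to Stx12 (0.0578) and Krt36 (0.0632), its further entry to Cul7 (0.0252) and Syde1 (0.0433), and Cd83 to 1600012P17Rik (0.0505) and Noc2l (0.0539). With 5 arrays in 3 groups and 11562 rows to choose from, such likeness is a description.

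Other genes of mature dendritic cells were lower in the pair labelled TRAF6 null as well. The list held 26 genes, found on 28 rows, of which 18 were tested. Against irradiated wild type 12 were lower and none higher, beside 22.9% and 20.8% of all tested rows. The median log2 difference of the 18 was -1.54 beside -0.03 over all tested rows. Il4i1, an amino acid oxidase, had log2 signals of 10.75 without irradiation, 11.52 and 11.63 in irradiated wild type, and 8.36 and 8.79 in the pair labelled TRAF6 null. It was 7.97-fold lower (-2.99 ± 0.20 SE, limma adjusted p = 0.00256). Relb, a subunit of NF-kB, stood at 7.56, then 9.17 and 9.27, then 6.55 and 6.18, and was 7.25-fold lower (-2.86 ± 0.19 SE, adjusted p = 0.00248). Nfkb2, its partner in the alternative NF-kB pathway, was above background on neither array labelled TRAF6 null and at least 5.84-fold lower (adjusted p = 0.00248). All 3 genes were named for the largest genotype differences of the list, so the gap between those 2 groups follows from that choice. For each, the unirradiated array lay between irradiated wild type and the arrays labelled TRAF6 null. Not every gene of the list differed so. Ccr7, the chemokine receptor that names the mature state, was singled out here after its values were seen. Its difference was -0.01 (interval -0.41 to 0.39, adjusted p = 0.969).

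In irradiated against unirradiated wild type, 9 of the 18 rows rose and none fell, beside 18.6% and 17.5% of all tested rows. The median was 1.06, or 0.87 with rows of a group below background set at their bound, beside 0.05 over all rows. Anxa3, a calcium-dependent membrane protein, rose 7.64-fold (2.93 ± 0.45 SE, limma adjusted p = 0.0118), from 9.46 to 12.35 and 12.43. Relb rose 3.15-fold (adjusted p = 0.0101) and Nfkb2 2.90-fold (adjusted p = 0.011). Against the unirradiated array, 15.0% of all tested rows were called lower in the pair labelled TRAF6 null and 13.6% higher. Of the list, 5 rows were lower there and none higher (median -0.19 beside -0.03). They included Il4i1 (4.51-fold, adjusted p = 0.00985), H2-M2, an MHC class I-like gene (2.75-fold, adjusted p = 0.0182), and Cd40, the receptor for T cell help (2.41-fold, adjusted p = 0.0189). Without irradiated wild-type array 1 or 2, the 12 lower rows of the genotype comparison became 5 in each fit, the 9 that rose became 0, and the 5 lower than unirradiated became 1. Without array 1 labelled TRAF6 null the last comparison had 5 rows lower and 3 higher and its median was 0.10.

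**Figure D3:**
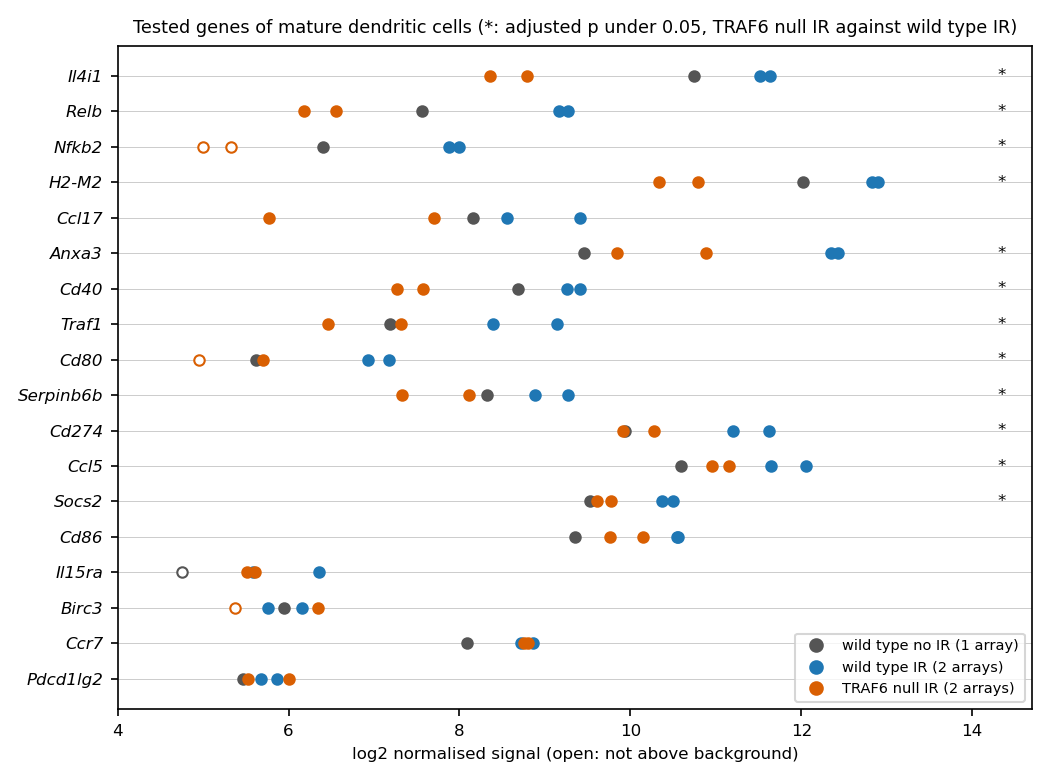
Normalised log2 signal of the 18 tested rows of mature dendritic cell genes, 1 point per array, coloured by group, in order of their difference between the arrays labelled TRAF6 null and irradiated wild type; open points are not above background and a star marks an adjusted p under 0.05 in that comparison. The irradiated wild-type points lie to the right of the points labelled TRAF6 null for the rows with a star, and the points of Ccr7 from those 2 groups interleave.

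Genes of the dendritic cell subsets were partly out of reach of the arrays. Of 18 rows for other genes of type 1 cells, 9 were above background on no array and 6 were tested. In the genotype comparison 3 were lower and none higher (median -0.69), beside 22.9% and 20.8% of all tested rows. Itgae, which encodes the CD103 integrin chain and is also carried by T cells, was 4.24-fold lower (-2.09 ± 0.19 SE, limma adjusted p = 0.00343), from 9.04 and 9.26 in irradiated wild type to 6.93 and 7.20. In wild type 3 of the 6 rose with irradiation (median 0.98), beside 18.6% of all tested rows. Rab7b, a small GTPase of the endosome, led them (3.62-fold, adjusted p = 0.0076). Septin3 was at least 3.17-fold lower in the pair labelled TRAF6 null than in irradiated wild type (adjusted p = 0.0041).

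Of 9 tested rows of type 2 genes, 3 were lower and 3 higher on the arrays labelled TRAF6 null than in irradiated wild type, where all rows gave 22.9% lower and 20.8% higher (median -0.36, or 0 with rows at their bound). Il1b, the inflammatory cytokine, was 17.7-fold lower (-4.15 ± 0.59 SE, limma adjusted p = 0.00735), with 8.34 and 9.91 in irradiated wild type against 4.55 and 5.40, the first of them not above background. Sirpa, an inhibitory receptor of myeloid cells, was 2.94-fold lower (adjusted p = 0.0134), and Klf4, a transcription factor, was 2.91-fold higher (adjusted p = 0.00412). Of 10 tested rows for other plasmacytoid genes, 4 were lower and 2 higher (median -0.56). Irf7, which drives type I interferon, was 10.8-fold lower (-3.43 ± 0.37 SE, adjusted p = 0.00451), from 8.26 and 8.94 in irradiated wild type to 5.57 and 4.77, of which the second was not above background, while Cd209d and Cox6a2 were 3.58-fold and 3.55-fold higher (adjusted p = 0.00649 and 0.0247). Cox6a2, a subunit of cytochrome oxidase, was lowest in irradiated wild type like Siglech, with the pair labelled TRAF6 null on either side of the unirradiated array: it stood at 8.28 without irradiation, 6.18 and 6.17 in irradiated wild type, and 8.62 and 7.38 in the pair labelled TRAF6 null, and it was 4.29-fold lower in irradiated than in unirradiated wild type (adjusted p = 0.0347).

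Ligands and chemokines that act on dendritic cells or their precursors followed. Of 12 tested rows 7 were lower and 1 higher in the genotype comparison (median -1.02, or -0.84 with rows at their bound). Over all tested rows 22.9% were called lower and 20.8% higher. Csf1, the growth factor of macrophages and monocytes, had log2 signals of 5.45 without irradiation, 9.36 and 9.49 in irradiated wild type, and 5.87 and 5.18 in the pair labelled TRAF6 null, of which the second was not above background. It was 14.9-fold lower in the pair labelled TRAF6 null (-3.90 ± 0.27 SE, limma adjusted p = 0.00258) and rose 15.8-fold with irradiation in wild type (3.98 ± 0.33 SE, adjusted p = 0.00614). The arrays labelled TRAF6 null thus lay on either side of the unirradiated array, far below irradiated wild type. Ccl2, a chemokine of monocytes, rose at least 16.1-fold with irradiation in wild type (adjusted p = 0.00814) and was 5.06-fold lower in the pair labelled TRAF6 null (adjusted p = 0.0138). Ltb, the membrane subunit of lymphotoxin, was 3.94-fold lower in the same comparison (adjusted p = 0.00821). Xcl1, the ligand of XCR1, stood at 8.36 without irradiation, 6.69 and 7.08 in irradiated wild type, and 6.29 and 5.74 in the pair labelled TRAF6 null, which were 5.08-fold lower than unirradiated (-2.34 ± 0.32 SE, adjusted p = 0.0122).

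Regulators and cytokine receptors of dendritic cell development came next. Of 13 tested rows 2 were lower and 1 higher in the genotype comparison (median -0.35), beside 22.9% and 20.8% of all rows; 7 were lower and none higher in the authors' matrix (median -0.55), and 5 were lower without array 1 labelled TRAF6 null. In wild type 6 rose and none fell with irradiation (median 0.64), beside 18.6% and 17.5% of all tested rows. The 2 lower rows were Relb, which the mature list also holds, and an Id2 entry (IDB2, -1.18 ± 0.18 SE, limma adjusted p = 0.00815); the entry named ID2 had a difference of 0.17 (adjusted p = 0.505), so the 2 entries of this inhibitor of E proteins disagreed. Csf1r, the receptor of CSF1, was 2.56-fold higher (adjusted p = 0.0108). Whether called or not, 9 of the 13 rows had a difference below 0 and 4 above 0. Among the latter was Zbtb46, singled out here after its values were seen, at 0.24 (interval -0.27 to 0.75, adjusted p = 0.363). Another Zbtb46 entry was above background on no array.

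Genes of MHC class II presentation, which dendritic cells share with B cells, macrophages and medullary epithelium, rose with irradiation in 9 of 12 tested rows (median 1.30), led by H2-Eb1 (6.25-fold), Cd74, the invariant chain (4.95-fold), and H2-Ab1 (4.15-fold). Over all tested rows 18.6% were called higher with irradiation in wild type. In the genotype comparison 5 of the 12 were lower and 2 higher, beside 22.9% and 20.8% of all tested rows. The 12 rows cover 11 genes, as Ciita has 2 entries. The median of the 12 was 0.21, and -0.04 in the authors' matrix. Ciita, the master regulator of these genes, stood at 8.42 without irradiation, 9.31 and 9.39 in irradiated wild type, and 6.68 and 6.70 in the pair labelled TRAF6 null, 6.32-fold lower than irradiated wild type (-2.66 ± 0.15 SE, limma adjusted p = 0.00228). Its other entry, C2TA, had 6.47 and 6.65 in irradiated wild type. In the pair labelled TRAF6 null that entry had 4.44 and 4.47, neither above background. H2-DMb2 went the other way, from 10.00 and 10.03 in irradiated wild type to 10.97 and 11.12. H2-Eb1 was 7.17-fold higher in the pair labelled TRAF6 null than on the unirradiated array (adjusted p = 0.00745), with 12.62 and 13.01 against 9.97.

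Without irradiated wild-type array 1 or 2, the counts of lower rows in the genotype comparison became 2 and 2 for type 1 genes, 1 and 1 for type 2 genes, 1 and 1 for plasmacytoid genes, 4 and 1 for ligands, 1 and 1 for regulators and receptors, and 2 and 2 for MHC class II, and every count of rows that rose in wild type became 0.

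Markers of other cells moved with these groups. In the genotype comparison 22.9% of all tested rows were called lower and 20.8% higher. With irradiation in wild type 18.6% were called higher and 17.5% lower. Medullary epithelium, which also expresses Relb, Nfkb2, Cd40 and Cd80, had 12 of 14 tested rows lower and 1 higher in the genotype comparison (median -2.39), and 10 higher and 1 lower with irradiation in wild type. The summed normalised linear signal of its 18 rows was 13555 without irradiation, 34257 and 34527 in irradiated wild type, and 7749 and 15532 in the pair labelled TRAF6 null, and Epcam was above background on no array. For the 28 rows of mature dendritic cells the same sum was 13151, then 28517 and 31839, then 9546 and 11056, so both sums had their highest values in irradiated wild type. Such sums weigh bright rows most, and both lists hold Cd80. Median log2 signals were highest in irradiated wild type too, at 8.43 and 8.60 for medullary epithelium and 8.19 and 8.30 for mature dendritic cells. Fezf2, a transcription factor of medullary epithelium, was 44.8-fold lower in the pair labelled TRAF6 null than in irradiated wild type (entry ZFP312, limma adjusted p = 0.00141), with the entry FEZF2 at least 8.97-fold lower. The part of medullary epithelium in the values of Fscn1, Cd83 and the mature list was not tested.

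Macrophage rows had 3 lower and 3 higher of 15 in the genotype comparison, near the 22.9% and 20.8% of all tested rows. Their median was 0.14, and -0.04 and -0.20 with median scaling and in the authors' matrix. Their summed signal was 12038 without irradiation and 27558 to 35274 on the 4 irradiated arrays. In wild type 12 of the 15 rose with irradiation, beside 18.6% of all tested rows. B cell rows, of which 7 of 12, among them Ms4a1 and Pax5, were above background on no array, summed to 802 without irradiation, 513 and 488 in irradiated wild type, and 1062 and 972 in the pair labelled TRAF6 null. A linear sum weighs bright rows most, and the order of this one is that of Cd79b. The median log2 signal of the 12 rows differed little, at 4.78, then 4.87 and 4.82, then 4.99 and 5.06. The part of B cells in the values of Irf8, which they also express, was not tested. Cd79b, a chain of the B cell receptor, was the 1 of 5 tested B cell rows that was higher in the genotype comparison (4.29-fold, limma adjusted p = 0.00301), at 8.88 without irradiation, 7.32 and 7.11 in irradiated wild type, and 9.37 and 9.26 in the pair labelled TRAF6 null; the other 4 had differences of -0.10 to 0.29 and did not pass. Double-positive thymocyte rows summed to 30428 without irradiation, 15747 and 11914 in irradiated wild type, and 8717 and 6927 in the pair labelled TRAF6 null. Their order is that of Cd83, and their part in its values was not tested.

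Across the remaining lists, fibroblast genes had 8 of 10 tested rows higher and 1 lower in the genotype comparison, neutrophil genes 3 of 6 higher, natural killer and innate lymphoid genes 2 of 4 higher, endothelial genes 3 of 11 lower and 1 higher, and cortical epithelial genes 2 of 8 lower and 1 higher, beside 22.9% of all tested rows lower and 20.8% higher. Without irradiated wild-type array 1 or 2 the fibroblast rows called higher became 3 and 2 and the neutrophil rows 2 and 1, the natural killer and innate lymphoid rows 1 and 1, and the medullary epithelial rows called lower 8 and 8. No endothelial, cortical epithelial or macrophage row was called lower in either of those fits.

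**Figure D4:**
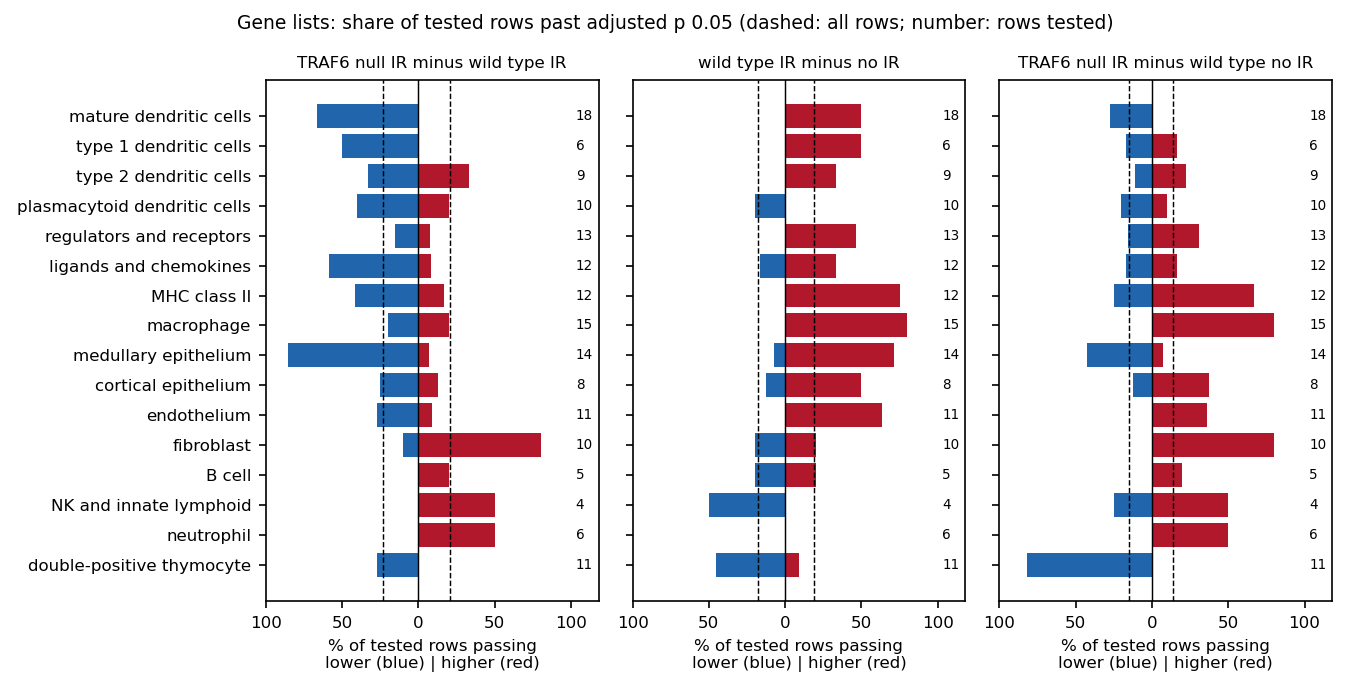
Share of the tested rows of each gene list with an adjusted p under 0.05, lower to the left and higher to the right of 0, in the 3 comparisons; the number at the right is the rows tested and dashed lines give the share over all 11563 rows. The members themselves are not plotted. In the genotype comparison, among the 16 lists plotted, those of mature dendritic cells (12 of 18 rows lower) and medullary epithelium (12 of 14) have the longest bars to the left, and fibroblast genes (8 of 10) the longest to the right.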

How the data were processed

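The 10 members and the gene lists were chosen with earlier results of these data known. Per the file headers, the deposited mouse table gives for each row and array a linear bead intensity, a bead count, a standard error over beads and a detection p-value, with 1 row per gene name; the authors' matrix of signal values holds the same intensities times 1 constant per array (0.899 to 1.04). RNA was extracted with Trizol, per the labels. For each array, negative controls were described by a mean and SD read from detection p-values between 0.02 and 0.98, with the inference built into neqc as an alternative. Normexp correction (offset 16), quantile normalisation and log2 followed in limma 3.58.1 (R 4.3.3). Testing covered 11563 of 30854 rows, those detected (p under 0.01) on 2 or more of the 5 arrays, with lmFit and eBayes, a mean per group, 2 residual and 2.89 prior degrees of freedom, and Benjamini-Hochberg adjustment at 0.05. The single unirradiated array is assumed to vary like the others. A group above background on no array has a bound, printed as "at least", set against the lowest normalised value above background. The offset pulls folds of dim rows towards 1. Named are all members, at most 3 rows per list and comparison (largest passing differences), and the 2 rows most like each tested member, with exceptions said where they stand. Of the row names, 16223 matched a current RefSeq symbol (GRCm38.p6), 5684 a synonym and 8947 neither. The fit was tested on simulated data, whose outcome is not given here and lends no support to the p-values above.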

Additional observations from a re-analysis of the deposited data

How the results depend on the processing

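The counts of calls, the medians of the lists, the 4 tested members and the further Batf3 entry were recomputed under up to 15 alternatives. Siglech, Xcr1 and the further Clec9a entry were fitted only in the wider set and with all rows, never with an array left out. Genes named from the lists were recomputed as part of their list and not singly. The 4 lower members of the genotype comparison became 1 without either irradiated wild-type array (range 1 to 4 over the arrays left out), 3 with the background inferred by neqc itself (without Batf3, -0.14, adjusted p = 0.0578) or with detection required on all 5 arrays, where Batf3 was not tested, and these 4 were called lower under the others. Of the 2 members that rose in wild type, Irf8 was lost with the replicate number as a block (count 1), and the count ranged from 0 to 3 with 1 array left out. Replicate numbers are shared by name alone (the correlation of the deviations of same-numbered arrays was 0.0319), and the block changed no other member's call. In the authors' matrix 3 members rose in wild type, Batf3 among them. Of the 2 members lower than on the unirradiated array, 1 passed with the background inferred by neqc itself, 1 with only the 2 groups compared, and 1 to 3 with 1 array left out. The further Batf3 entry changed sign in that comparison with median scaling (-0.04) and without array 1 labelled TRAF6 null (-0.16, in a range to 0.34 over the arrays left out), neither passing; the cause was not tested. Over all rows the calls, 5049, 4179 and 3300 in the 3 comparisons, were 2951, 2763 and 1831 under the inference by neqc; the genotype count was 1143 and 620 without irradiated wild-type array 1 or 2, the wild-type count 0 without either and 6388 without the arrays labelled TRAF6 null, and the last count 879 without irradiated wild type and 5030 without array 1 labelled TRAF6 null. The split of 2643 lower and 2406 higher rows was 4390 and 1247 in the authors' matrix and 3408 and 1967 with median scaling, whose medians over all rows were -0.28 and -0.19 beside -0.03; in the wild-type comparison the matrix had a median of 0.26 beside 0.05, with 3392 rows higher and 1484 lower. A group left with 1 array adds nothing to the estimated spread, so leaving out either of its arrays gives the other 2 groups the fit they have alone, which counts as 1 alternative; for the genotype comparison the fit on its 2 groups alone is the reported fit. A slide or scan date block was not run, since the headers used here give neither. Low signal over background limits 5 of the 6 members that were not tested; Siglech was above background on all arrays and missed the filter by its detection p.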
